A study of Mus musculus with 9 samples.

Results

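Embryonic stem (ES) cells and cardiac fibroblasts were compared here on 6 of the series' 9 arrays: the 3 titled as C57 ES cells and the 3 titled as mouse cardiac fibroblasts. The other 3 arrays, of fibroblasts that had been dedifferentiated, entered the estimate of spread and the choice of each gene's row, but not the means compared. The series concerns the dedifferentiation of adult cells with protein, and here the fibroblasts are the starting cell and the ES cells the pluripotent reference. The platform was a 1-colour Affymetrix Mouse Gene ST array, hybridised with total RNA, and each sample had its own array. A gene is represented by 1 row of the deposited table, the one with the highest mean over the 9 arrays among rows that the platform annotation ties to a single symbol, which gave 19938 genes.

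Both groups are labelled C57BL/6, and the RNA of both was extracted with the same column kit. The fibroblasts are described as adult, with no age given, and neither group carries a transgene or a treatment in the labels. The fibroblasts' source label names ES cells besides, so samples were grouped by their titles. The labels state no culture medium, passage, feeder layer or sex, and do not tell if replicates are different animals, cultures or aliquots. The p-values therefore reflect only how far these arrays differed, which can be technical, and 3 arrays per group limit the precision.

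As background, ES cells come from the inner cell mass of the blastocyst, divide quickly, grow as tight epithelial colonies and are kept undifferentiated by a small set of transcription factors around Oct4, Sox2 and Nanog. Cardiac fibroblasts come largely from the embryonic epicardium, and they make, cross-link and turn over the collagen-rich matrix of the heart wall. In culture on plastic they tend to take on contractile features of myofibroblasts and to secrete cytokines.

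The 2 cell types were far apart compared with the arrays of either. Arrays correlated at 0.991 to 0.994 among fibroblasts, at 0.988 to 0.992 among ES cells and at 0.911 to 0.917 between them. The median SD of a gene over the 3 arrays was 0.105 log2 units in fibroblasts and 0.127 in ES cells, and only 24 and 48 genes spanned 1 log2 unit or more within their group. A gene was called higher or lower in ES cells at a Benjamini-Hochberg adjusted p under 0.05 by limma, over all 19938 genes, with a difference of at least 1 log2 unit. By this rule 1764 genes (8.85%) were higher in ES cells and 2073 (10.4%) were lower, that is, higher in fibroblasts. The median difference over all genes was 0.02 log2 units. The largest differences lay more often on the fibroblast side, where 211 genes differed by 4 log2 units or more, against 73 on the ES side. Values of the 2 groups overlapped for 1 called gene, Usp17ld.

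**Figure D1:**
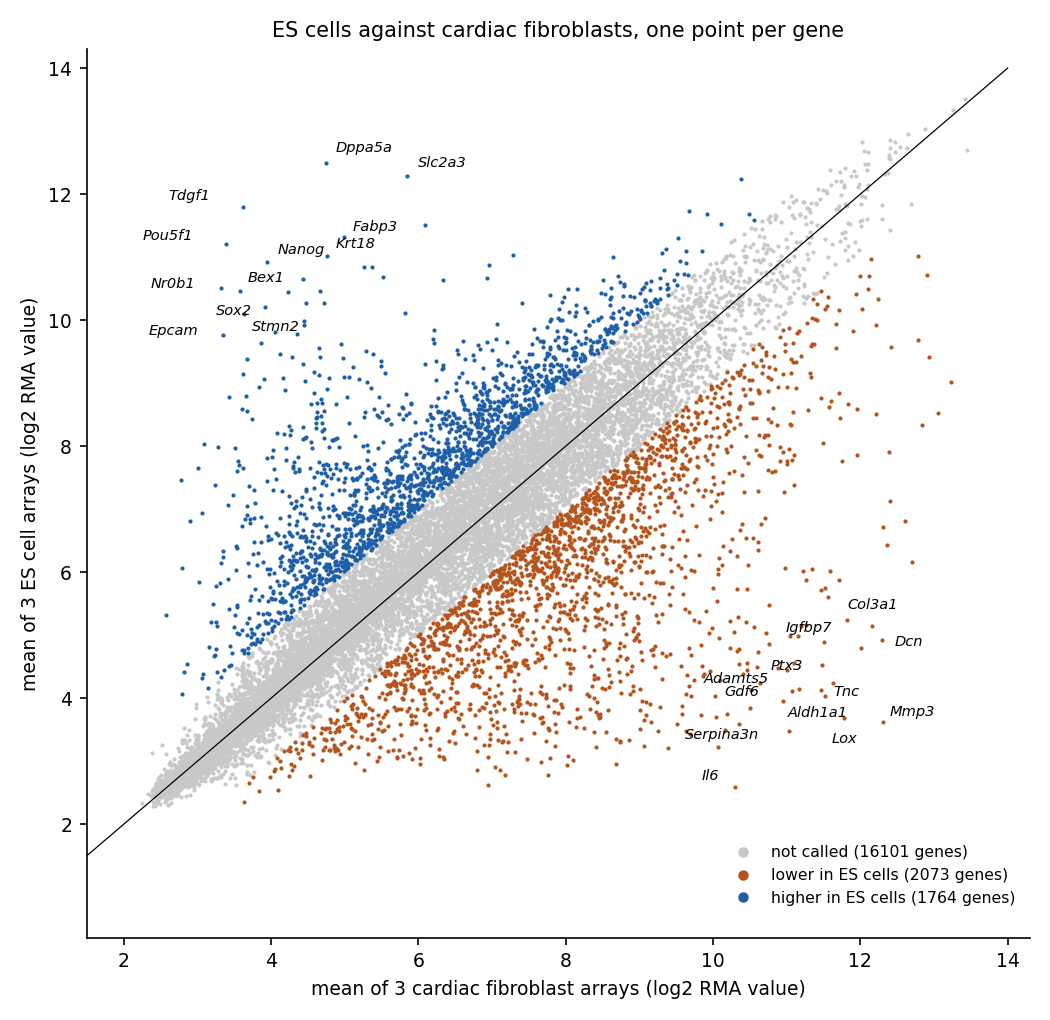
Each point is 1 of 19938 genes, with the mean of the 3 fibroblast arrays on the horizontal axis and the mean of the 3 ES cell arrays on the vertical axis (both log2 RMA values, the line marks equal values). The 1764 genes higher in ES cells are blue, the 2073 lower ones are brown, and the 12 named genes at each end reach 8.17 log2 units (Tdgf1) above the line and -8.70 (Mmp3) below it.

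The genes with the largest differences on the ES side were led by regulators and a surface protein of the pluripotent state. Tdgf1, which encodes the Nodal co-receptor Cripto, read 3.85, 3.49 and 3.53 on the fibroblast arrays and 11.80, 11.81 and 11.80 on the ES cell arrays. The difference was 8.17 log2 units (95% interval 7.96 to 8.39, limma adjusted p = 4.2e-13). All 3 ES values thus lay close together and far above every fibroblast value. Pou5f1, the gene for Oct4, read 4.16, 2.91 and 3.11 in fibroblasts and 11.15, 11.32 and 11.18 in ES cells, a difference of 7.82 (interval 7.28 to 8.37). Fibroblast array 1 was the highest of its group for Pou5f1, still far below the ES arrays. The next were Dppa5a, an RNA-binding protein gene of early embryos (7.76), the orphan nuclear receptor Nr0b1 (7.19), Nanog (6.97) and Bex1 (6.90). They were followed by the tubulin-binding stathmin Stmn2 (6.47), the glucose transporter Slc2a3 (6.45), the adhesion protein Epcam (6.40), the fatty acid-binding protein Fabp3 (6.32), Sox2 (6.29) and the simple-epithelial keratin Krt18 (6.25).

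On the fibroblast side the largest differences belonged to secreted proteins. Mmp3, the matrix protease stromelysin, read 12.30, 12.24 and 12.40 in fibroblasts and 3.89, 3.28 and 3.69 in ES cells. It was lower in ES cells by a log2 difference of -8.70 (interval -9.03 to -8.36, limma adjusted p = 3.1e-12). Lox, the enzyme that cross-links collagen and elastin, read 11.72, 11.79 and 11.85 against 3.62, 3.53 and 3.90, a difference of -8.10. For both genes the 2 groups of arrays were far apart, and the arrays within each lay close together. The next genes for secreted proteins were Il6 (-7.70), the protease inhibitor Serpina3n (-7.55), tenascin C (Tnc, -7.48), the pentraxin Ptx3 (-7.38), decorin (Dcn, -7.36), Igfbp7 (-7.22), the aggrecanase Adamts5 (-7.03), Col3a1 (-7.01) and the growth factor Gdf6 (-6.98). Aldh1a1 (-7.34), which stood among them, encodes an enzyme of retinoic acid synthesis. Where a group read no higher than genes of sensory receptors, described below, as Tdgf1 did in fibroblasts and Mmp3 in ES cells, its value may be background. The difference is then one of signal on the array, its size gives no fold change of RNA, and the order of such differences ranks signal alone. In RNA from a whole population, a lower value can come from fewer cells with the transcript or from less of it per cell, and these cannot be told apart.

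**Figure D2:**
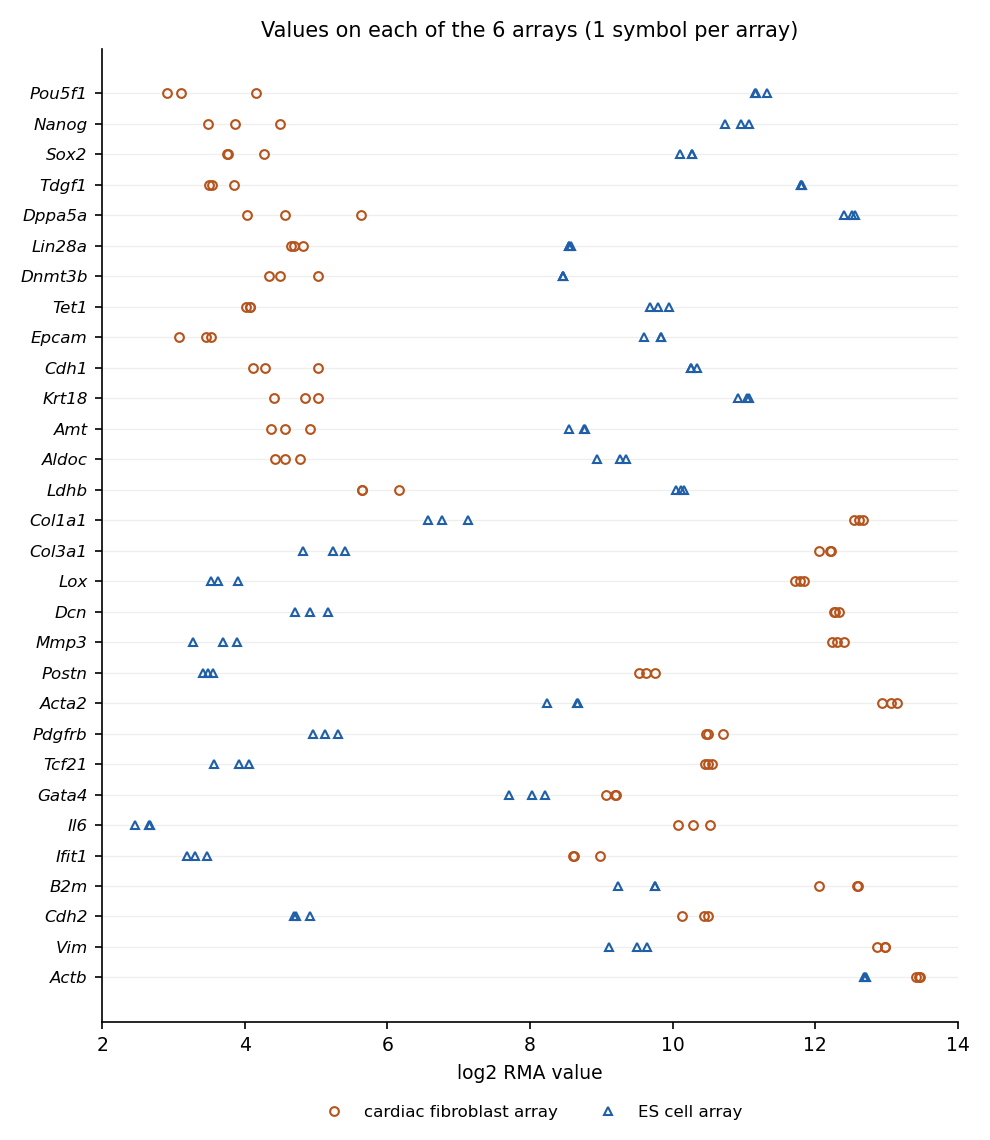
The log2 RMA value (horizontal axis) of 30 genes on each of the 3 fibroblast arrays (circles) and 3 ES cell arrays (triangles). For every gene shown the symbols of the 2 groups are separate, from Pou5f1 at the top, higher in ES cells, to Actb at the bottom, whose difference of -0.75 did not reach 1 log2 unit.

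Genes of the extracellular matrix were described first by the collagens, the fibrous proteins that carry the tensile load of tissue. Of 35 collagen genes measured, 15 were lower in ES cells and 1 higher, against 10.4% and 8.85% of all genes, with a median of -0.28 against 0.02 for all genes. Col1a1 read 12.54, 12.61 and 12.68 in fibroblasts and 7.14, 6.57 and 6.77 in ES cells, a 55.2-fold difference. Col3a1 read 12.05, 12.23 and 12.21 against 5.40, 5.24 and 4.82 (-7.01). The chains of the fibril-forming types I, III and V were thus separated widely on every array, with Col1a2 at -5.93 and Col5a2 at -6.56. The fibril-associated Col12a1 (-5.90) and Col14a1 (-4.72) and the short-chain Col8a1 (-6.39) were also lower in ES cells. Type IV collagen, the network of basement membranes, was split. Its widespread chains Col4a1 (-0.30) and Col4a2 (-0.66) were not called, whereas Col4a5 (-3.73) and Col4a6 (-2.52) were lower in ES cells. Col18a1, another basement membrane collagen, was the only collagen of the list higher in ES cells (1.59, interval 1.34 to 1.84).

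Most genes for the enzymes and chaperones that modify and assemble collagen were lower in ES cells. Of 21 such genes, 16 were lower and 0 higher (0 at an unadjusted p under 0.05), with a median of -1.86. The sizes differed by step. The extracellular cross-linking enzymes Lox (-8.10), Loxl1 (-5.23) and Loxl3 (-4.001) and the procollagen peptidase enhancer Pcolce2 (-3.90) led the list. Genes for work inside the endoplasmic reticulum were closer between the cell types: the collagen chaperone Serpinh1 differed by -1.86, the lysyl hydroxylase Plod2 by -1.31 and the prolyl hydroxylase subunit P4ha1 by -1.45. Ppib (-0.65) and P4ha2 (-0.53) were not called.

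Proteoglycans and glycoproteins of the matrix followed. Of 21 proteoglycan and hyaluronan genes, 11 were lower in ES cells and 1 higher (median -1.22). The small leucine-rich proteoglycans, which bind collagen fibrils, held the largest differences: decorin (Dcn) read 12.26, 12.28 and 12.33 in fibroblasts and 4.71, 4.92 and 5.16 in ES cells, and Prelp and biglycan (Bgn) differed by -6.41 and -5.59. The exception was Srgn, whose product serglycin is stored in secretory granules, at 6.97 ± 0.35 in fibroblasts and 10.87 ± 0.38 in ES cells (means with their SD over 3 arrays), a difference of 3.91. Perlecan (Hspg2), a basement membrane proteoglycan, differed by 0.15 and was not called. Of 30 glycoprotein and elastic fibre genes, 22 were lower and 0 higher (0 at an unadjusted p under 0.05, median -2.38). Tnc read 11.55, 11.36 and 11.63 against 3.61, 4.38 and 4.13. Fibulin-2 (Fbln2, -6.53), periostin (Postn, -6.15) and thrombospondin-2 (Thbs2, -6.02) were next, and fibronectin (Fn1, -1.42) was among the smaller called differences. Sparc (-0.85) and elastin (Eln, -0.63) were not called.

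Basement membrane laminins were split by chain. Of 15 genes of laminins, nidogens and related proteins, 4 were higher in ES cells and 6 lower, so the median was -0.14. The alpha chain Lama1, which early embryonic basement membranes contain, read 4.72, 4.99 and 4.31 in fibroblasts and 10.16, 10.50 and 10.73 in ES cells (5.79, limma adjusted p = 1.3e-10). Lama5 (1.94), Lamb1 (1.46) and agrin (Agrn, 1.04) were higher as well. The mesenchymal alpha chains Lama4 (-5.46) and Lama2 (-4.60) were lower, as were Lamb2 (-1.89) and nidogen-1 (Nid1, -1.80). Agrin lay near the minimum difference and was not called with array weights or without fibroblast array 1.

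Matrix proteases and their inhibitors had the lowest median of the matrix lists at -3.10, with 22 of 32 genes lower in ES cells and 0 higher (1 at an unadjusted p under 0.05). After Mmp3 came Adamts5, which read 11.08, 11.17 and 11.27 in fibroblasts and 4.05, 3.96 and 4.42 in ES cells. The metalloprotease inhibitors were lower together with the proteases: Timp3 differed by -5.27, Timp1 by -4.49 and Timp2 by -2.92. Serpinf1, which encodes a secreted serpin, differed by -4.60 and the collagen-degrading cathepsin Ctsk by -4.47. Adamts9 (-0.90) and Adam19 (-0.63) were not called.

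Cell-matrix adhesion and the contractile cytoskeleton were read next. Of 20 integrin genes, 11 were lower and 2 higher (median -1.39). Itgb8 (-4.36), Itga4 (-3.88), the collagen receptor chain Itga1 (-3.52) and Itga9 (-3.13) were lower, whereas the laminin receptor chains Itga6 (3.87) and Itga3 (2.22) were higher. Of 35 actin, myosin and focal adhesion genes, 23 were lower and 0 higher (3 at an unadjusted p under 0.05, median -1.41). Acta2, the smooth muscle actin that marks myofibroblasts, read 13.07, 12.94 and 13.15 in fibroblasts and 8.24, 8.65 and 8.68 in ES cells, a 23.1-fold difference. The myosin light chain Myl9 (-4.90), the actin-bundling protein transgelin (Tagln, -3.71) and Actg2 (-3.24) were lower as well. Tpm1 (-0.97) and Pdlim7 (-0.77) were not called.

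Many contractile genes are known targets of serum response factor, which binds the CArG box. The promoter of Myl9 is shown because its gene led the contractile list and its window holds a match to the CArG consensus. RefSeq's table gives the 250 bases before the start at chr2:156775214-156775463 on the plus strand of GRCm38.p6, with the match in capitals, beginning 161 bases before the start.
Myl9: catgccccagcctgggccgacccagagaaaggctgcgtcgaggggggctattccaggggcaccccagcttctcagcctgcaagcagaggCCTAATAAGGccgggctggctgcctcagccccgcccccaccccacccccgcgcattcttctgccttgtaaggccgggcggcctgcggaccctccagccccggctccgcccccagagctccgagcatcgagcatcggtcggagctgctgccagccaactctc
Searched on both strands in windows running from 250 bases before to 50 after each start, the consensus occurred in 18.9% of the 37 promoters of this list and in 1.63% of all 32851 promoters of the table. Of the 21 called members with a promoter, 5 held a match. A match describes the letters and is no evidence of binding, and no match says only that the letters are not in the window.

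Caveolae, the flask-shaped pits of the plasma membrane, had 7 of 9 genes lower in ES cells and 1 higher (median -2.64). The coat protein gene Cavin2 read 9.62, 9.69 and 9.78 in fibroblasts and 3.85, 3.19 and 3.27 in ES cells (-6.26). Ehd2, which stabilises the neck of the pit, differed by -5.11, Cavin3 by -3.16 and Cav1 by -2.80. The muscle-type coat gene Cavin4 was higher in ES cells (1.11).

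Surface proteins served to check the labels of the 2 groups. Of 26 proteins typical of fibroblasts or mesenchyme, 20 were lower in ES cells and 3 higher (median -1.79). Pdgfrb, a receptor for platelet-derived growth factor, read 10.47, 10.49 and 10.71 against 5.31, 5.13 and 4.96, and the collagen receptor Ddr2 differed by -5.34. Vcam1 (-6.04) and the receptor tyrosine kinase Axl (-5.20) were lower too, and Pdgfra (-3.21) and Thy1 (-2.73) less widely so. The higher genes were the glycoprotein Cd24a (3.38), Mcam (2.74) and the tetraspanin Cd9 (1.78). The serine protease gene Fap (-0.98), often used to mark activated fibroblasts, was not called, and its fibroblast value was 3.97 ± 0.27.

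Transcription factors of the heart and of mesenchyme were next. Of 45 measured, 24 were lower in ES cells and 3 higher (median -1.18). Tcf21, which the epicardium needs to form cardiac fibroblasts, read 10.46, 10.49 and 10.55 in fibroblasts and 4.06, 3.91 and 3.57 in ES cells, a difference of -6.65 (limma adjusted p = 1.0e-11). The T-box factors of the heart Tbx20 (-6.03) and Tbx18 (-5.52) and the mesenchymal homeobox factor Prrx1 (-5.80) were close behind. The regulators of the mesenchymal state Zeb2 (-4.45), Zeb1 (-3.61), Snai2 (-3.38) and Twist1 (-2.19) were all lower in ES cells.

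Several other heart factors of the list differed less than Tbx20 and Tbx18 or were not called. Gata4 read 9.21, 9.07 and 9.20 in fibroblasts and 7.70, 8.03 and 8.20 in ES cells, lower in ES cells by a called difference of -1.18, and Gata6 differed by -0.79 without being called. All ES values of both genes lay above the level of sensory receptor genes described below. Nkx2-5 (-0.13), Isl1 (0.03), Mef2c (-0.89) and Tbx5 (-0.91) were not called. The members higher in ES cells were Tbx3 (2.83), Klf2 (1.63) and Klf9 (1.57), of which Tbx3 and Klf2 also belong to the circuit of naive pluripotency.

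Immediate early genes, which respond within minutes to serum or stress, split in both directions. Of 19 measured, 4 were higher in ES cells and 6 lower (median -0.41). Fosb (3.00), Atf3 (2.53), Fos (1.67) and Jun (1.13) were higher, and Jun was not called with array weights. Maff (-2.68), Ier3 (-2.63), Fosl2 (-2.45) and Egr2 (-1.91) were lower.

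Secreted signals of inflammation were mostly lower in ES cells. Of 30 cytokine and chemokine genes, 18 were lower in ES cells and 0 higher (1 at an unadjusted p under 0.05, median -1.43). Il6, the cytokine that drives the acute-phase response, read 10.52, 10.07 and 10.29 in fibroblasts and 2.66, 2.67 and 2.47 in ES cells (-7.70, limma adjusted p = 8.3e-13). The neutrophil chemokine Cxcl5 read 10.25, 9.58 and 10.37 against 3.51, 3.00 and 3.16. Fibroblast array 2 was the lowest of its group for both, and no value of one group came near the other. Csf1, the growth factor of macrophages, differed by -5.95, and the monocyte chemokines Ccl7 and Ccl2 by -4.45 and -3.86. The classical cytokines of activated macrophages were not called: Tnf differed by -0.03 and Il1b by -0.14.

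The promoter of Il6 is shown because the gene led this list and a NF-kB site is a known element of cytokine promoters. Its 250 bases before the start lie at chr5:30012864-30013113 on the plus strand of GRCm38.p6 (RefSeq), and the capitals mark the match to the NF-kB consensus, which begins 44 bases before the start.
Il6: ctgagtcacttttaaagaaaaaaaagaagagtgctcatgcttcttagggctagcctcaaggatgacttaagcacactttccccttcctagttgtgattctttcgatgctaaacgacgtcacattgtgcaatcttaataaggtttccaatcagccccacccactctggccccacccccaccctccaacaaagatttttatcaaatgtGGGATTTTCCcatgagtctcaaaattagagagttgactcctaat
The consensus, searched on both strands in the same windows, occurred in 30.4% of the 23 promoters of cytokine and chemokine genes and in 4.51% of all promoters. Of the 13 called members with a promoter, 5 held it.

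Receptors for these signals and the pathway behind them were read next. Of 26 genes for cytokine receptors and the NF-kB pathway, 17 were lower and 1 higher (median -2.19). The oncostatin M receptor Osmr read 9.80, 9.79 and 9.93 in fibroblasts and 3.58, 3.83 and 3.82 in ES cells. Il1rap (-5.80) and Il4ra (-4.998), subunits of interleukin receptors, and the decoy receptor Tnfrsf11b (-4.67) followed, and the lipopolysaccharide receptor Tlr4 differed by -3.63. The NF-kB subunits themselves were closer: Rela (-0.98), Relb (0.27) and Nfkb2 (-0.29) were not called.

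Interferon-response genes, which encode antiviral proteins, were lower in ES cells in 24 of 28 cases and higher in 1 (median -2.22). Ifit1, whose product binds viral RNA, read 8.60, 8.62 and 8.98 in fibroblasts and 3.19, 3.31 and 3.47 in ES cells (-5.41). The master regulator Irf7 read 9.96, 9.92 and 10.22 against 3.95, 4.07 and 4.10. Rtp4 (-5.40) and Ifit3 (-4.62) were close to them. The difference extended to the machinery that receives the signal: the receptor chains Ifnar2 (-2.45) and Ifnar1 (-1.06), the factors Irf9 (-2.16) and Stat2 (-1.03) and the RNA sensor Ifih1 (-3.83) were all lower in ES cells. The exception was Ifitm1 at 2.58, and its neighbour Ifitm3 was lower at -2.29. Members of the Ifitm family are similar in sequence, and how far their probes share signal was not tested.

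The promoter of Ifit1 is shown for the repeated element it carries. The 250 bases before the start lie at chr19:34640639-34640888 on the plus strand of GRCm38.p6 (RefSeq). Capitals mark 3 matches to GAAANNGAA, the core of the interferon-stimulated response element, which lie here as the reverse complement, overlap in part and begin 109 to 84 bases before the start.
Ifit1: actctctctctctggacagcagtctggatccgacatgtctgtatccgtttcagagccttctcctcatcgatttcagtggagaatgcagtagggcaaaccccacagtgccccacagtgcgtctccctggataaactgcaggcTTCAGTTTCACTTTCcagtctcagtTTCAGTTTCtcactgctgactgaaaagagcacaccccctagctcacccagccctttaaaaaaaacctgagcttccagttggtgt
On either strand GAAANNGAA occurred in 42.9% of the 28 promoters of the interferon list and in 8.56% of all promoters. Of the 21 called members with a promoter, 11 held it.

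Antigen presentation and complement, other arms of immunity, were lower in part. Of 17 antigen presentation genes, 6 were lower and 0 higher (0 at an unadjusted p under 0.05, median -0.46). B2m, the light chain of class I molecules, read 12.59, 12.05 and 12.61 in fibroblasts and 9.24, 9.76 and 9.75 in ES cells. The peptide-trimming Erap1 (-2.75), the immunoproteasome subunit Psmb8 (-2.15) and the peptide transporter chain Tap2 (-1.74) were lower too. The class II genes H2-Aa (-0.23) and Cd74 (0.17) were not called, with fibroblast values of 3.10 ± 0.11 and 3.39 ± 0.14. Of 24 complement and coagulation genes, 16 were lower and 1 higher (median -1.71), led by the complement inhibitor Serping1 (-3.98) and factor B (Cfb, -3.84). Clusterin (Clu, 1.93) was the gene higher in ES cells.

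Secreted growth factors lay on both sides. Of 34 measured, 14 were lower in ES cells and 5 higher (median -0.71). Ereg, a ligand of the EGF receptor, read 10.34, 10.29 and 10.42 in fibroblasts and 3.50, 3.65 and 3.64 in ES cells. Vegfd (-5.84), Fgf7 (-5.66), which acts on epithelia, and Hgf (-4.43) were lower in ES cells as well. The ES side held Igf2 (3.85), Fgf4 (3.62), the autocrine FGF of ES cells, midkine (Mdk, 2.76) and Pdgfb (1.63). Of 8 genes for IGF receptors and binding proteins, 4 were lower and 1 higher: Igfbp7 read 11.87, 12.13 and 12.02 against 4.95, 4.53 and 4.90, Igfbp4 differed by -3.23, and Igfbp2 was higher in ES cells by 2.13.

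Ligands of the TGF-beta family lay on both sides too. Of 41 genes of the pathway, 24 were lower in ES cells and 8 higher (median -1.28). The fibroblast ligands were Gdf6, which read 10.81, 10.84 and 11.19 against 3.99, 4.13 and 3.78, the activin subunit Inhba (-6.06) and Tgfb3 (-5.49). On the ES side stood the Nodal branch: Nodal itself (2.35), its co-receptor Tdgf1 (8.17), the related ligand Gdf3 (3.93) and the inhibitors Lefty2 (2.03) and Lefty1 (1.18). Among intracellular members, the inhibitory Smad6 (-3.68) and the BMP target Id3 (-3.68) were lower in ES cells.

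In the Wnt pathway 9 of 37 genes were lower and 1 higher (median -0.02, against 0.02 for all genes). Fzd4 (-4.06), a Wnt receptor, Wnt5a (-3.53) and the secreted antagonist Sfrp1 (-3.30) were lower, and the R-spondin receptor Lgr4 (1.91) was higher. The target gene Axin2 differed by 0.15 and was not called. Of 17 genes around YAP and TEAD, which respond to cell spreading, 10 were lower and 2 higher (median -1.21). Ankrd1 differed by -4.48 and Lats2 by -3.42, and the textbook targets Ccn1 and Ccn2 by -1.90 and -1.77. Yap1 (-0.42) was not called.

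Enzymes that make lipid signals were a further fibroblast group. Of 26 genes for prostaglandin, retinoid and steroid metabolism, 14 were lower in ES cells and 2 higher (median -1.09). The retinaldehyde dehydrogenases Aldh1a1 and Aldh1a2 make retinoic acid: Aldh1a1 read 11.47, 11.44 and 11.50 in fibroblasts and 4.14, 4.12 and 4.12 in ES cells. Aldh1a2 differed by -6.96, cholesterol 25-hydroxylase (Ch25h) by -6.67 and the oxidase Cyp1b1 by -6.54. The enzyme that removes retinoic acid, Cyp26a1, was higher in ES cells (1.53), as was the binding protein Crabp1 (1.12). Ptgs2, the inducible cyclooxygenase, differed by -5.29.

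Defence against oxidants, lysosomes and fat handling came next. Of 33 antioxidant and detoxification genes, 14 were lower in ES cells and 2 higher (median -0.54). Mgst1 (-4.72) and the peroxidase-family gene Gpx8 (-3.84) were lower, and the glutathione transferase Gsta4 was higher by 5.47, from 5.37 ± 0.21 to 10.84 ± 0.069. Catalase (Cat, 1.02) was called higher only narrowly, and not with array weights or without ES array 3. Of 32 lysosomal genes, 11 were lower and 0 higher (7 at an unadjusted p under 0.05, median -0.53), led by the acid lipase Lipa (-2.42). Of 22 genes of lipid handling, 6 were lower, led by lipoprotein lipase (Lpl, -3.16), and 7 were higher, among them Fabp3 (6.32), Apoe (1.77) and the sterol-pathway genes Insig1 (1.76) and Hmgcs1 (1.65).

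**Figure D3:**
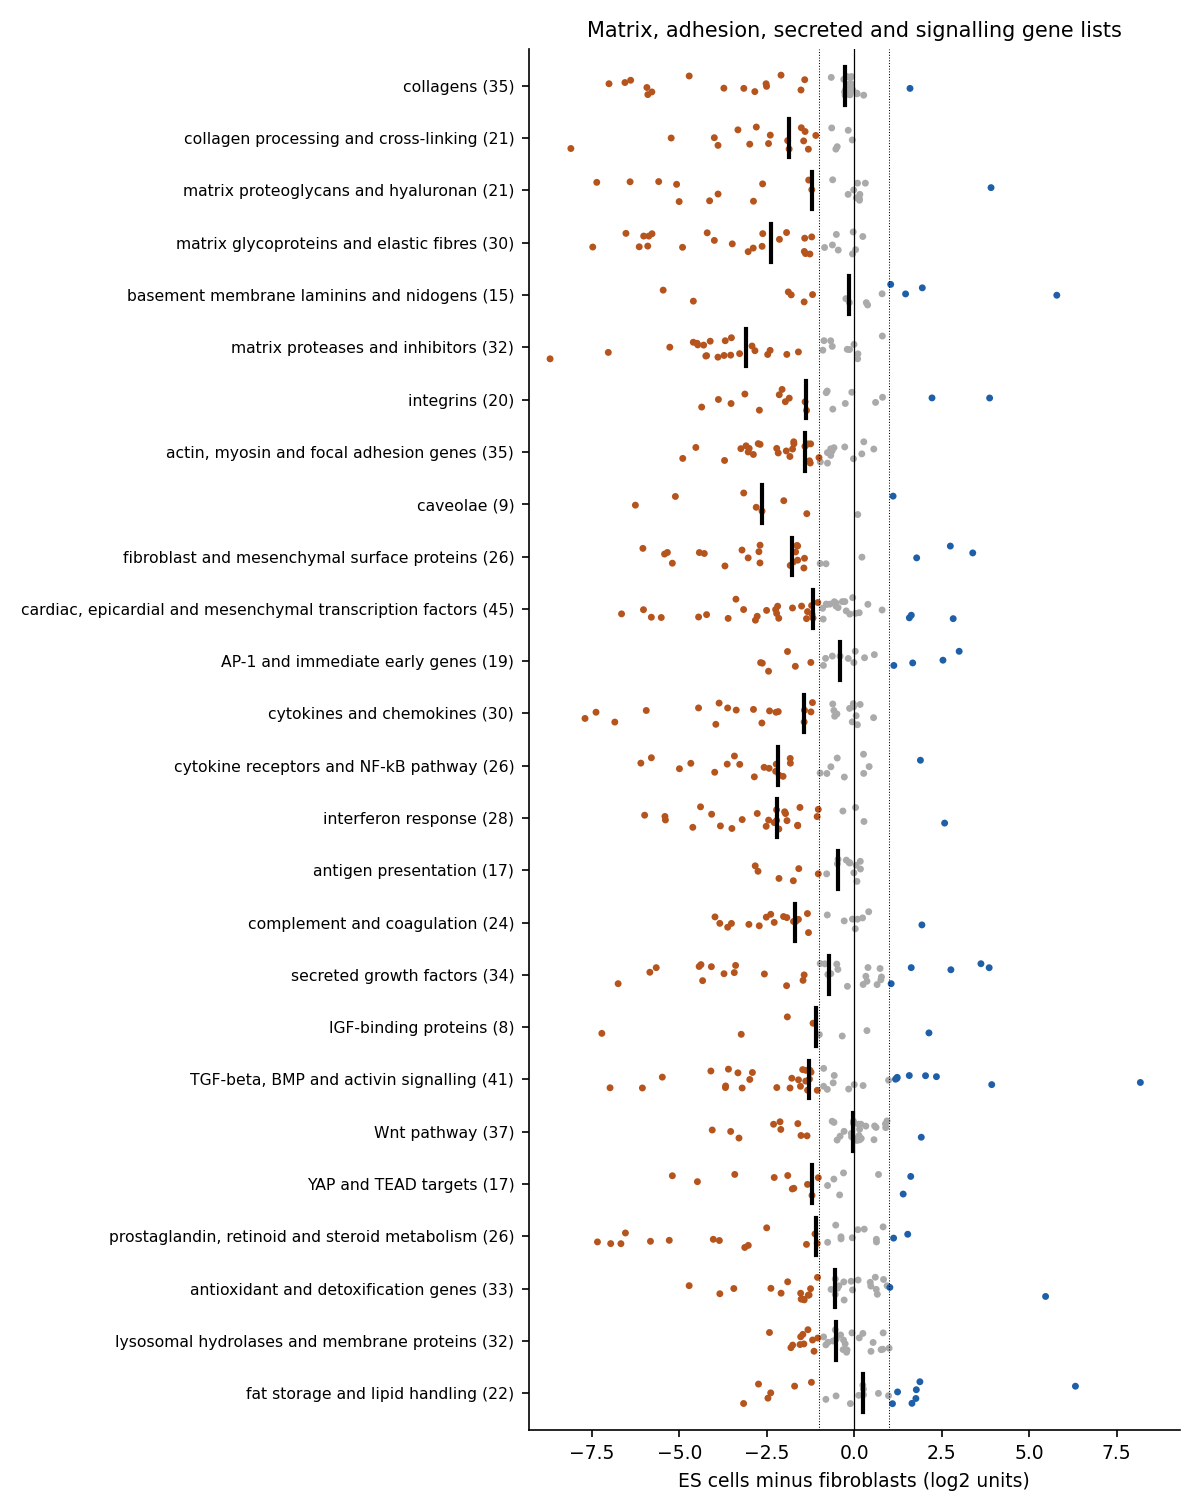
Each row is a gene list (number of measured genes in brackets) and each point a gene, placed by its difference, ES cells minus fibroblasts, in log2 units. Brown points were called lower in ES cells, blue points higher and grey points neither, black bars mark the list medians, and dotted lines mark 1 log2 unit. Matrix proteases (-3.10) and caveolae (-2.64) have the lowest medians, and lipid handling (0.25) has points on both sides.

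On the ES side the transcription factors of pluripotency came first. Of 26 measured, 22 were higher in ES cells and 1 lower (median 2.90). Nanog read 3.86, 4.50 and 3.49 in fibroblasts and 10.74, 10.96 and 11.07 in ES cells. Sox2, the partner of Oct4, read 3.76, 4.27 and 3.75 against 10.11, 10.27 and 10.27. Utf1 (6.21), the nuclear receptor Esrrb (5.72) and Tfcp2l1 (5.33) were close to them. The difference was smaller for Klf4, one of the classical reprogramming factors, which read 7.55, 7.69 and 7.62 in fibroblasts and 9.19, 8.90 and 9.002 in ES cells (1.41). The lower gene was Myc, at 8.84, 8.76 and 8.84 in fibroblasts and 5.53, 5.86 and 5.58 in ES cells (-3.16, interval -3.36 to -2.96), whereas its relative Mycn was higher by 2.70. Foxd3 (0.77) and Zfp281 (0.13) were not called. A further motif, the octamer, was searched in the same promoter windows. It occurred in 7.69% of the 26 promoters of this list and in 2.62% of all promoters. Of the 16 called members with a promoter, 2 held it, Sall1 (3.11) and Zfp42 (2.97).

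Of 37 other genes associated with pluripotency, 35 were higher in ES cells and 0 lower (1 at an unadjusted p under 0.05, median 3.74). Tdgf1, Dppa5a, Bex1 and Stmn2 led them. Lin28a, which blocks the maturation of let-7 microRNAs, read 4.81, 4.69 and 4.65 in fibroblasts and 8.55, 8.55 and 8.58 in ES cells. The developmental regulators Dppa2 (4.30) and Dppa4 (4.26), the F-box gene Fbxo15 (5.35) and the RNA-binding L1td1 (4.91) were higher as well. Alpl (-0.46) and Khdc3 (0.60) were not called. Alpl encodes tissue-nonspecific alkaline phosphatase, whose activity is a common stain for ES colonies, and it read 8.29, 8.30 and 8.31 in fibroblasts and 7.84, 7.83 and 7.84 in ES cells.

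Genes of later embryonic stages and of germ cells were read next. Of 21 genes of the primed epiblast and gastrulation, 7 were higher in ES cells and 0 lower (0 at an unadjusted p under 0.05, median 0.30). The claudin Cldn6 (4.68), the de novo DNA methyltransferase Dnmt3b (3.84), Otx2 (3.23) and Zic5 (2.74) were the largest, and the primed marker Fgf5 (0.76) was not called. Of 29 germ cell and piRNA genes, 15 were higher and 0 lower (3 at an unadjusted p under 0.05, median 1.13). Tdrd12, a Tudor-domain gene of the piRNA pathway, read 3.94, 3.48 and 3.62 in fibroblasts and 8.41, 8.60 and 8.69 in ES cells. The receptor tyrosine kinase Kit (3.86), the meiotic cohesin subunit Stag3 (3.61) and the synaptonemal complex gene Sycp3 (3.27) followed. The Piwi genes differed among themselves: Piwil2 (2.00) was higher, and Piwil1 (0.00) and Piwil4 (-0.06) were not called.

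Epithelial genes were mostly higher in ES cells. Of 37 genes for junctions, keratins and polarity, 30 were higher in ES cells and 2 lower (median 2.50). Epcam read 3.53, 3.08 and 3.46 in fibroblasts and 9.60, 9.84 and 9.84 in ES cells. E-cadherin (Cdh1), which holds epithelial cells together, read 4.28, 5.02 and 4.12 against 10.34, 10.25 and 10.25 (5.81). The lower genes were the mesenchymal cadherins: N-cadherin (Cdh2) read 10.44, 10.13 and 10.50 in fibroblasts and 4.69, 4.92 and 4.72 in ES cells (-5.58), and Cdh11 differed by -4.38. The keratin pair Krt18 (6.25) and Krt8 (5.42), the tight-junction claudin Cldn4 (5.58) and the splicing regulator Esrp1 (4.57) were higher. The intermediate filament vimentin (Vim), typical of mesenchyme, read 12.87, 12.97 and 12.97 in fibroblasts and 9.11, 9.51 and 9.64 in ES cells (-3.52).

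Chromatin regulators were higher in ES cells in many, but not all, complexes. Of 41 DNA methylation and histone-modifying genes, 23 were higher and 3 lower (median 1.20). Tet1, which oxidises methylcytosine, read 4.07, 4.07 and 4.01 in fibroblasts and 9.68, 9.80 and 9.95 in ES cells (5.76). Dnmt3l, the cofactor of the de novo methyltransferases, differed by 5.56 and Dnmt3b read 4.49, 5.03 and 4.35 against 8.46, 8.46 and 8.46. The 3 ES values of Dnmt3b were equal (SD 0), and why was not tested. Dnmt3a (0.65) and the maintenance enzyme Dnmt1 (0.72) were not called. Within Polycomb repressive complex PRC2, the core subunits Suz12 (2.22), Eed (1.69) and Ezh2 (1.05) and the accessory subunits Jarid2 (3.42) and Mtf2 (2.73) were all higher. Within PRC1, Phc1 (3.64) and Cbx7 (3.28) were higher and Bmi1 (-2.67) was lower.

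Remodelling complexes and histone chaperones had 14 of 34 genes higher and 4 lower (median 0.54). The BAF remodelling complex, which ES cells are known to assemble from particular subunits, showed both directions. Smarcd1 (2.20) and Smarcc1 (1.103) were higher, and Smarcd3 (-2.38), Smarcc2 (-1.85) and the ATPase Smarca2 (-1.29) were lower. The alternative ATPase Smarca4 (0.44) was not called. The remodeller Chd7 (2.14) was higher and Chd3 (-1.97) lower.

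Many genes of DNA replication and mitosis were higher in ES cells. Of 41 DNA replication genes, 25 were higher and 1 lower (median 1.18), with no difference above 2.67. The origin-binding subunit Orc1 (2.67), Mcm8 (2.34), the polymerase delta subunit Pold2 (2.21) and Mcm10 (2.16) led. Of the helicase subunits Mcm2 to Mcm7, Mcm4 (0.97) was not called and the others lay between 1.16 (Mcm6) and 1.64 (Mcm7). The lower gene was Tyms (-1.28), which makes thymidylate. Of 43 mitosis genes, 29 were higher and 0 lower (0 at an unadjusted p under 0.05, median 1.28). The separase gene Espl1 (2.23) and the checkpoint kinases Bub1 (2.12) and Bub1b (1.98) stood at the top, and Cdk1 (0.42) was not called.

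Genes that control entry into the cycle were called about as often as all genes (8.85% higher and 10.4% lower). Of 32 genes of G1 control, 4 were higher in ES cells and 3 lower (median 0.17). Ccnd2, a D-type cyclin, read 11.49, 11.64 and 11.59 in fibroblasts and 8.19, 8.67 and 9.01 in ES cells (-2.95), and its kinase Cdk6 differed by -2.51. Ccne1, a cyclin that ES cells keep at high activity, was higher by 1.13. The inhibitor Cdkn2c (-2.46) was lower and Cdkn1c (2.01) higher, whereas Cdkn2a (0.27) and Cdkn1b (-0.04) were not called. In DNA repair, 23 of 31 repair and telomere genes were higher and 0 lower (0 at an unadjusted p under 0.05, median 1.59). Rif1 (2.89), the mismatch-repair gene Msh6 (2.88), Parp1 (2.62) and the helicase Blm (2.40) led, and the telomerase subunit Tert was higher by 1.80.

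In metabolism, the enzymes of glycine, threonine and one-carbon chemistry were read first. Of 25 one-carbon genes, 10 were higher in ES cells and 1 lower (median 0.68). Amt and Gldc encode subunits of the glycine cleavage system: Amt read 4.38, 4.92 and 4.57 in fibroblasts and 8.54, 8.78 and 8.75 in ES cells (4.07), and Gldc differed by 3.50. A further subunit gene, Gcsh (0.23), was not called, and neither was Dld (-0.11), which also serves other complexes. Cth (3.11) and Shmt1 (2.30) were next. Tdh, the threonine dehydrogenase of mouse ES cells, had no row with a single symbol and was not analysed here.

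Of 30 genes for glycolysis and sugar transport, 9 were higher and 0 lower (5 at an unadjusted p under 0.05, median 0.38). The glucose transporter Slc2a3 read 5.76, 5.85 and 5.93 in fibroblasts and 12.20, 12.26 and 12.43 in ES cells. Aldoc read 4.77, 4.42 and 4.57 against 8.95, 9.26 and 9.35, and Ldhb 6.17, 5.65 and 5.65 against 10.05, 10.16 and 10.12. These are isoenzyme genes, and the common forms Aldoa (0.41) and Ldha (-0.46) were not called. The main trunk of the pathway, with Pkm (0.07), Tpi1 (-0.23) and Pgk1 (0.11), was not called either. Ribosome biogenesis had 8 of 30 genes higher and 0 lower (1 at an unadjusted p under 0.05, median 0.74), led by the RNA polymerase I subunits Polr1c (1.62) and Polr1b (1.41).

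Signals that maintain ES cells were examined from ligand to target. Of 16 genes of LIF and gp130 signalling, 5 were higher in ES cells and 7 lower (median -0.81). The receptor chain Lifr was higher (1.89), from 6.48 ± 0.085 to 8.36 ± 0.28. The ligand Lif (-3.37), the shared chain gp130 (Il6st, -3.27), the kinase Jak2 (-2.51) and the transcription factor Stat3 (-2.00) were all lower than in fibroblasts. The target Socs3 (0.49) was not called, and the kinases Pim1, Pim2 and Pim3 were higher by 1.13, 1.41 and 1.22. Of 20 genes for FGF receptors and ERK feedback, 3 were higher and 3 lower: Etv5 (1.78) was higher, and Spry1 (-2.55) and Fgfr1 (-1.21) were lower. Spry2 (-1.01) was called lower only narrowly, and not after further quantile normalization or without fibroblast array 1 or ES array 2.

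Of 28 imprinted genes, which are read from 1 parental copy, 9 were higher in ES cells and 4 lower (median 0.55). The amino acid transporter Slc38a4 read 3.70, 3.92 and 3.98 in fibroblasts and 9.51, 9.62 and 9.77 in ES cells. Zdbf2 (4.04), Igf2 (3.85) and Phlda2 (3.01) were higher, and Dcn (-7.36), Ndn (-3.02), Sgce (-2.00) and the noncoding RNA Meg3 (-1.80) were lower. The arrays do not separate the parental copies.

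**Figure D4:**
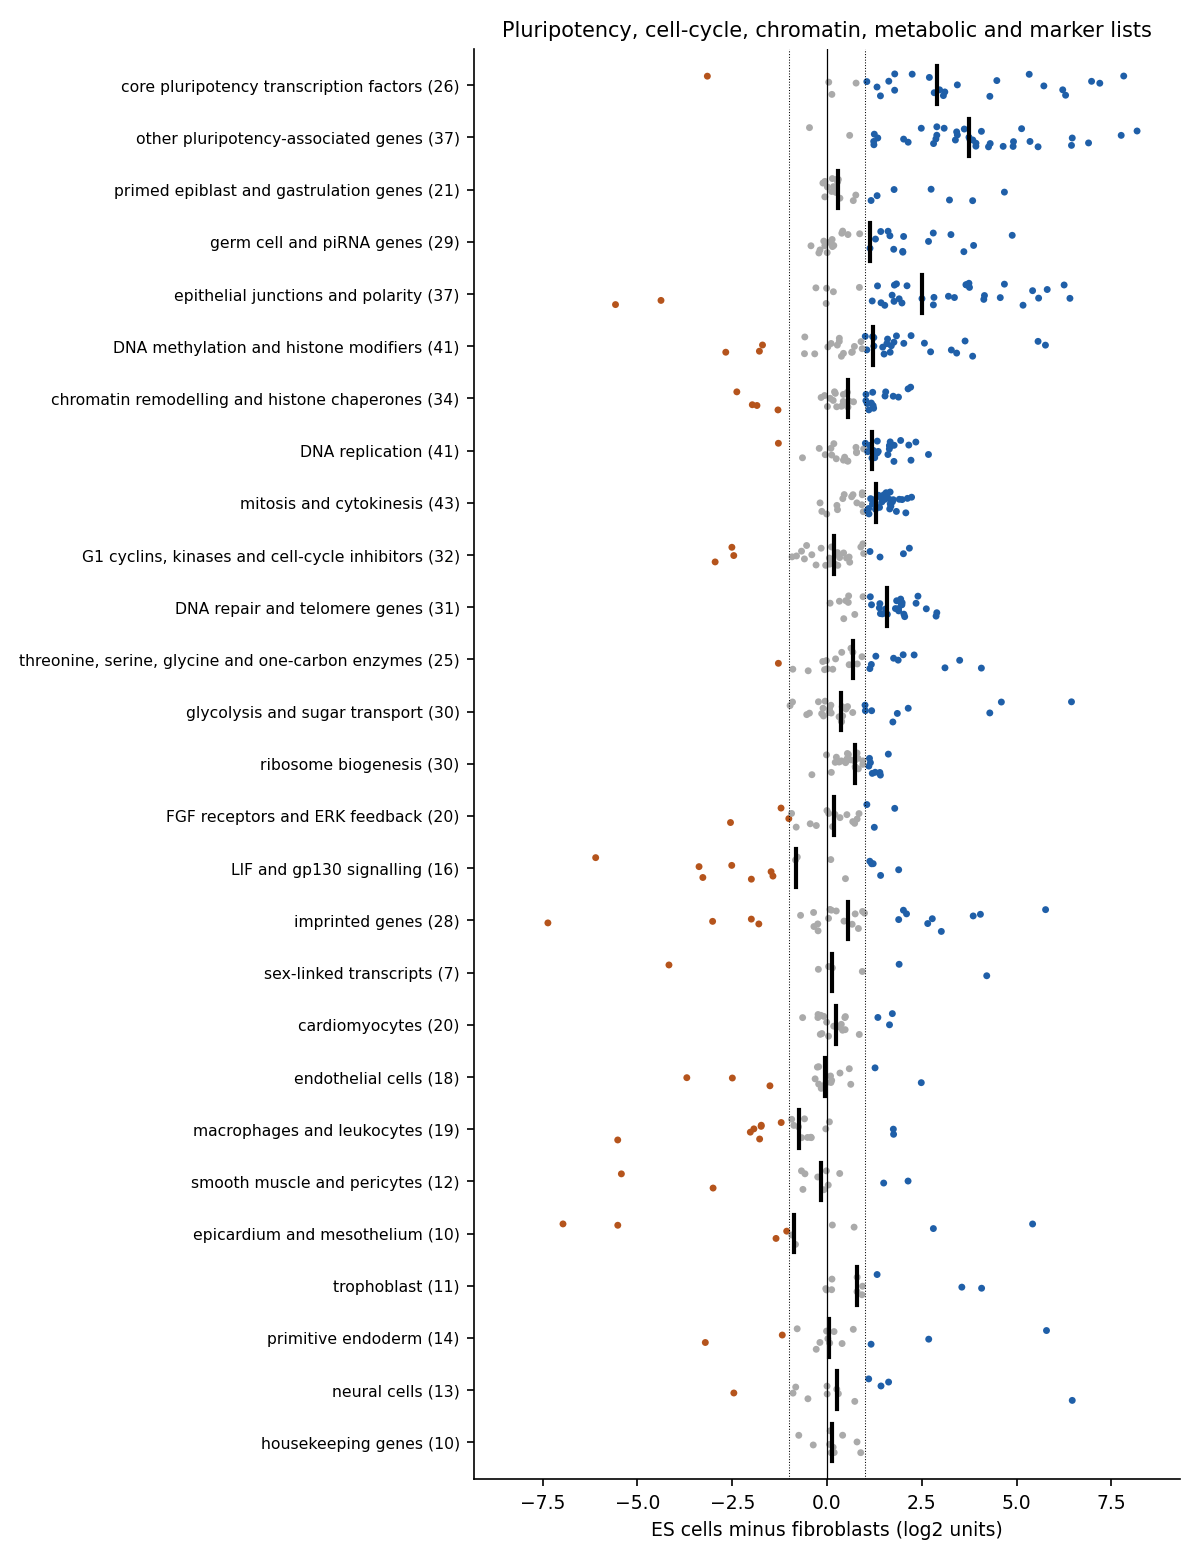
The same display for the lists of pluripotency, epithelium, chromatin, cell cycle and metabolism, and for markers of other cell types and housekeeping genes. Pluripotency lists have the highest medians (2.90 and 3.74), the called replication and mitosis points higher in ES cells lie between 1 and 2.67 log2 units, and no housekeeping point is coloured.

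MicroRNA genes of the Mir17 to Mir92 cluster were a small group on the ES side, named after their values were seen. These RNAs are cut from 1 primary transcript, are known to promote proliferation, and pair with targets mainly through the seed, bases 2 to 8. Their mature sequences are shown, with the seed in capitals, because the members fall into families by it. All lie within chr14:115043684-115044380, on the plus strand of GRCm38.p6, and the sequences are RefSeq's.
mmu-miR-17-5p: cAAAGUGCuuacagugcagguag
mmu-miR-20a-5p: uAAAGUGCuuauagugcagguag
mmu-miR-18a-5p: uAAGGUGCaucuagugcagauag
mmu-miR-19a-3p: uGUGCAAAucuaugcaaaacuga
mmu-miR-19b-3p: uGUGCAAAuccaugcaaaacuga
miR-17-5p and miR-20a-5p share the seed AAAGUGC, miR-19a-3p and miR-19b-3p share GUGCAAA, and miR-18a-5p has AAGGUGC. The array row of such a gene reads its locus and not a mature arm. Of 296 microRNA genes with a row, 7 were higher in ES cells and 3 lower, smaller shares than the 8.85% and 10.4% of all genes. Of the 5 cluster genes measured, 4 were among the higher ones. Mir20a read 2.89, 3.45 and 3.43 in fibroblasts and 5.99, 5.61 and 5.74 in ES cells (2.52, limma adjusted p = 4.7e-07), and Mir19b-1 read 3.18, 3.12 and 3.36 against 5.56, 5.22 and 5.72 (2.28). All ES values of these genes lay above all fibroblast values. Mir18 (1.98) and Mir19a (1.60) were called too, whereas Mir17 (0.90) and the host transcript Mir17hg (0.84) did not reach 1 log2 unit.

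Which genes could be read as present in 1 cell type alone was judged against a yardstick, because the values carry no detection call. Genes of smell, taste and pheromone receptors (1224 genes, 1027 of them Olfr genes) are little used outside sensory neurons. Their 95th percentile lay between 3.98 and 4.12 and their 99th between 4.78 and 4.99 over the 6 arrays. A called gene counted as above the chemosensory level in 1 cell type only if it exceeded the 99th percentile on all 3 arrays of that type and stayed under the 95th on all 3 of the other. This is a description, since probes differ in affinity and a probe with high background can exceed the level without a transcript. By it, 214 genes (1.07%) were above the level in fibroblasts only and 67 (0.336%) in ES cells only. A further 9936 genes were above it on all 6 arrays, of which 7361 were called in neither direction, and 4959 were under the 95th percentile on all 6.

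Beyond genes described above, the fibroblast-only genes with the largest differences included the matrix proteins dermatopontin (Dpt, -6.19) and Srpx2 (-6.44), the receptor Gpr39 (-6.34), the ankyrin-repeat gene Asb5 (-5.92) and Hsd11b1 (-5.83), which activates glucocorticoids. Dpt read 9.48, 9.28 and 9.42 in fibroblasts and 3.27, 3.13 and 3.23 in ES cells. Periostin (Postn), a matrix protein of the injured heart, read 9.62, 9.52 and 9.76 against 3.41, 3.56 and 3.49. On each of the 3 ES arrays both lay under the 95th percentile of the sensory receptor genes. Of the 30 cytokine and chemokine genes, 4 met the description (1.07% of all genes did), as did 7 of the 32 matrix protease genes and 6 of the 28 interferon-response genes.

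Beyond genes at the start of the results, such as Tdgf1, Nr0b1 and Epcam, the ES-only genes with the largest differences were Slc38a4 (5.76) and Esrrb (5.72). Esrrb read 3.54, 3.79 and 3.69 in fibroblasts and 9.22, 9.44 and 9.51 in ES cells. Next came the nucleotide-sugar transporter-like gene Slc35f2 (5.51), Rimklb (5.14), Fam169a (4.99), Lrrc34 (4.94) and Bex4 (4.64). The zinc-finger genes Zfp980 (4.70), Zfp979 (4.46) and Zfp640 (4.69) were also among them. Zfp980 read 3.25, 2.97 and 3.63 in fibroblasts and 7.45, 8.28 and 8.22 in ES cells, with ES array 1 the lowest of its group. Zinc-finger genes of this kind have near-identical copies, so how their probes divide the signal is uncertain.

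Some related genes took opposite sides. From the lists above, 15 such pairs were picked after their values were seen, so the opposite direction is a description and the number of pairs says nothing of how often it occurs. In adhesion, the pairs were Cdh1 and Cdh2, Lama1 (5.79) and Lama2 (-4.60), and Itga6 (3.87) and Itga4 (-3.88). Among transcription factors, Mycn and Myc differed by 2.70 and -3.16, Tead4 and Tead1 by 1.61 and -1.34, and Fosb and Fosl2 by 3.00 and -2.45. Among secreted proteins and their receptors, Igf2 (3.85) stood opposite Igf1 (-4.09), Fgf4 (3.62) opposite Fgf7 (-5.66), Pdgfa (1.05) opposite Pdgfc (-1.43), Igfbp2 (2.13) opposite Igfbp7 (-7.22) and Lifr (1.89) opposite Osmr (-6.10). In lipid binding, Fabp3 (6.32) stood opposite Fabp5 (-2.39). Each of these values is a difference between cell types for 1 gene, and levels of different genes were not set against each other, since probes differ in affinity.

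**Figure D5:**
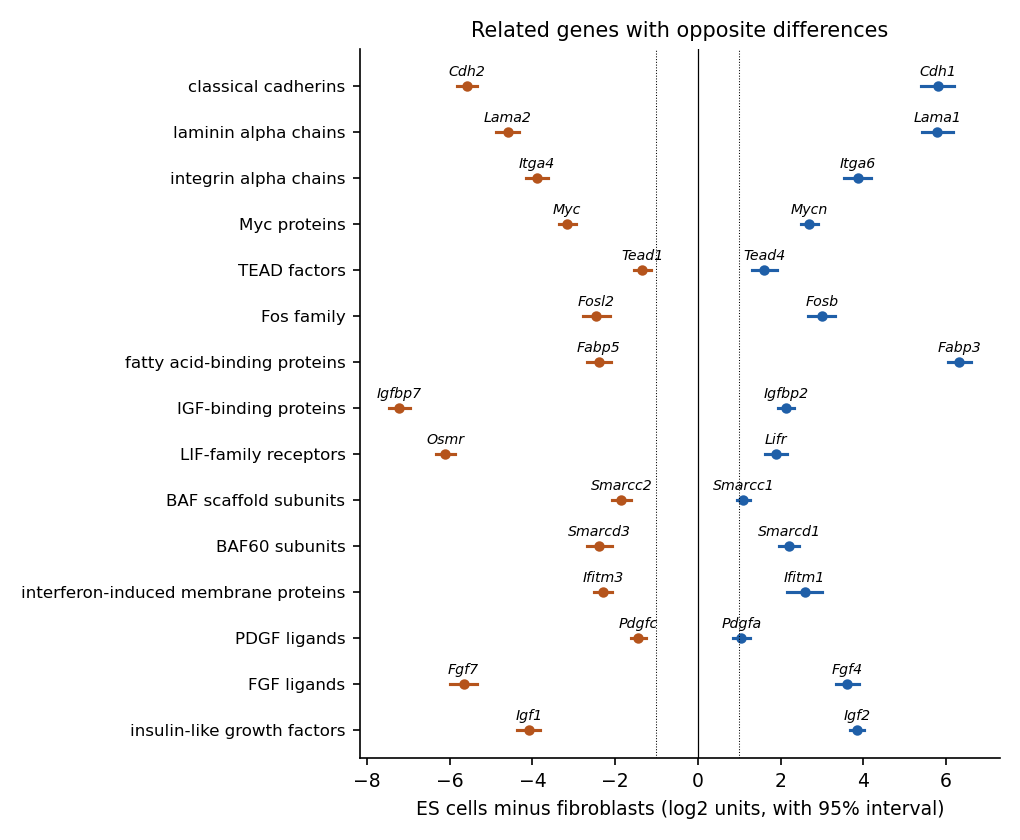
The difference, ES cells minus fibroblasts, in log2 units (points, with 95% intervals from the fit as lines) for 15 pairs of related genes chosen after their values were seen. Blue points were higher in ES cells and brown points lower, dotted lines mark 1 log2 unit, and the widest separations are Cdh1 (5.81) with Cdh2 (-5.58) and Lama1 (5.79) with Lama2 (-4.60).

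Markers of other cells that either culture could hold were read in the same way. For cardiomyocytes, 0 of 20 markers were lower in ES cells (3 at an unadjusted p under 0.05) and 3 higher (median 0.24), and the defining genes Myh6 (4.13 ± 0.091 in fibroblasts) and Ttn (3.79 ± 0.026) lay under the 95th percentile of the sensory receptor genes or close to it. On all 3 fibroblast arrays 5 of the 20 markers were above the chemosensory level, against 10984 of all 19938 genes. On all 3 ES arrays 7 were, against 10737 of all genes. Myh6 and Ttn thus do not speak for the whole list. The summed linear level of the list ran from 551 to 631 on the fibroblast arrays and from 769.6 to 834 on the ES arrays. Of 18 endothelial markers, 3 were lower and 2 higher, and 9 were above the chemosensory level on all 3 fibroblast arrays. Eng (-3.70) and Ptprb (-2.50) were lower, Pecam1 (2.48) was higher, and the defining Cdh5 read 4.61 ± 0.11 and 4.39 ± 0.066 (summed list level 2029 to 2127 in fibroblasts and 879 to 901 in ES cells). Of 19 macrophage and leukocyte markers, 7 were lower in ES cells and 2 higher (median -0.75). Above the chemosensory level in fibroblasts only were 5 of the 19, against 1.07% of all genes. Of the 7, none was left among genes whose mean over all arrays exceeded the median gene, and 3 were left among genes with a group averaging 6 or more. The first filter averages all 9 arrays, so a gene high in fibroblasts alone, such as Lyz2, can fail it through the other arrays. The second can be passed through the fibroblast values alone. Neither count tells whether the fibroblast values are background. Their summed level ran from 1193 to 1354 in fibroblasts and from 1039 to 1128 in ES cells. Lyz2 read 9.07, 8.68 and 8.81 in fibroblasts and 3.39, 3.30 and 3.32 in ES cells, and the complement genes C1qa, C1qb and C1qc differed by -1.74, -2.02 and -1.93. The pan-leukocyte gene Ptprc (4.42 ± 0.12 in fibroblasts, -0.67) and Adgre1 (-0.93) were not called. The part of such cells in the fibroblasts' cytokine and complement values was not tested.

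Of 12 smooth muscle and pericyte markers, 2 were lower and 2 higher. Above the chemosensory level on all 3 fibroblast arrays were 6 of them, against 10984 of all 19938 genes. The defining Myh11 (5.27 ± 0.26 in fibroblasts) was not called (summed level 2214 to 2476 in fibroblasts, 725 to 798 in ES cells). Of 10 epicardial and mesothelial markers, 4 were lower, led by Aldh1a2 (-6.96) and Tbx18 (-5.52), and 2, the keratins Krt8 and Krt19, were higher. Wt1 read 4.66, 4.73 and 4.38 in fibroblasts and 4.73, 4.73 and 4.73 in ES cells (summed level 3287 to 3787 in fibroblasts, 3707 to 4238 in ES cells). For ES cells the lists were trophoblast, with 3 of 11 higher and 0 lower (0 at an unadjusted p under 0.05), primitive endoderm, with 3 of 14 higher and 2 lower, and neural cells, with 4 of 13 higher and 1 lower. Tfap2c (4.08) and Krt7 (3.55) made up most of the first, and Lama1 (5.79) and Cubn (2.68) of the second. The largest difference of the neural list was that of Stmn2 (6.47), which also stood among the pluripotency-associated genes above. Gata4, Gata6 and Dab2 read 7.98 ± 0.26, 8.04 ± 0.22 and 8.56 ± 0.39 in ES cells, and Sox7 (5.85 ± 0.096) and the endoderm product gene Afp (3.67 ± 0.12) were not called. Summed levels ran from 274 to 295 in fibroblasts and from 960.4 to 1028 in ES cells for trophoblast, from 3472 to 3653 and from 2456 to 3572 for primitive endoderm, and from 857 to 936 and from 1519.8 to 1728 for neural markers. The labels name no feeder cells, and the part of differentiating or feeder cells in the ES values was not tested.

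Of 7 sex-linked transcripts, 2 were higher in ES cells, 1 was lower and 4 were not called (median 0.14). Xist, the noncoding RNA of the inactive X chromosome, read 7.39, 7.24 and 7.31 in fibroblasts and 3.39, 3.27 and 2.78 in ES cells, and the Y-linked Eif2s3y read 3.51, 3.69 and 3.45 against 7.47, 7.95 and 7.85. The labels state no sex, and any difference of sex between the groups cannot be told apart from cell type in this comparison. Among the 278 X-linked genes above the chemosensory level on all 6 arrays, 14.4% were higher in ES cells and 17.6% lower, with a median difference of -0.03. The 9644 autosomal genes of that kind had 12.5% higher, 13.3% lower and a median of 0.08. Single autosomes ranged from 9.17% to 16.9% higher and from 9.54% to 19.03% lower, with medians from 0.01 to 0.18, so the X chromosome's counts lay within the range of the autosomes and its median slightly below it.

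Housekeeping genes gave the scale of differences between the arrays in genes used by most cells. Of 10 measured, 0 were higher and 0 lower by the limma call, and their differences ran from -0.75 (Actb) to 0.89 (Polr2a), with a median of 0.13. At an unadjusted p under 0.05 with no minimum difference, 4 were higher and 2 lower, so small differences in such genes exceeded the spread between arrays. Gapdh had no row with a single symbol and was not analysed here.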

How the data were processed

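RNA of 3 ES cell, 3 cardiac fibroblast and 3 dedifferentiated fibroblast samples was read on Affymetrix Mouse Gene 1.0 ST arrays. The authors deposited log2 values per probe set, made with RMA in Affymetrix Expression Console 1.1 per the submitters' processing notes. RMA scales arrays to each other, so the values carry no total RNA per cell; array medians ran from 4.65 to 4.86. Of 35557 rows, 21789 had 1 symbol, 1621 several and 12147 none in the platform annotation; 21698 of the first matched RefSeq by Entrez ID.

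All 9 arrays were fitted in 1 model with limma 3.58.1 (R 4.3.3), with no filter on low values, and the contrast was ES cells minus fibroblasts. On simulated data with 19938 genes, all 67 genes changed by 1.5 log2 units and all 66 changed by 3 were called, as were 0 of the 67 changed by 0.5 and 1 of the 19738 unchanged genes. The simulated noise was normal, independent between arrays and as wide as each gene's own spread, with no shared culture or batch effect. The minimum of 1 log2 unit largely set this outcome, so it checks the procedure and gives no error rate for these arrays. Genes were named by rule: the 12 largest called differences each way without overlap, the next 12 on each side among genes above the chemosensory level in 1 cell type only (both without clone and model names), per list the 4 largest called each way and the 2 uncalled with the lowest p, and a short fixed set. Other list members, the related pairs and the microRNAs were named after their values were seen. The members and lists were chosen with earlier results of these data known. Lists are described by counts and medians, with no test of a list.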

Additional observations from a re-analysis of the deposited data

How the results depend on the processing

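Other normalizations, filters, row choices, variance models, array weights and leaving out each array kept the counts of called genes within 1.5 times. The exceptions were the thresholds: at least 2 log2 units gave 448 higher and 865 lower, no minimum difference gave 5203 and 4570, and the 99th percentile on both sides gave 534 in fibroblasts only and 306 in ES cells only. Without 1 of the 6 compared arrays, 1705 to 1891 genes were higher and 2047 to 2152 lower. Then 220 to 237 were in fibroblasts only and 68 to 87 in ES cells only, by a rule eased to fewer arrays. An intensity trend, robust variances, the 6 arrays alone or leaving out a dedifferentiated array gave 1764 and 2073 again. These settings leave the compared differences unchanged, so they could hardly move the counts. Further quantile normalization moved the split to 1952 higher and 1985 lower. With the replicate number as a block, the counts were 1764, 2073, 214 and 67. In this balanced design a block leaves each difference unchanged, and the minimum difference largely sets the calls. The equal counts therefore say nothing about pairing. Deviations of same-numbered samples from their group means correlated at -0.16, -0.20 and 0.25. With 3 arrays per group, these values cannot decide if the numbers pair the samples. The 289 called genes named by rule were refitted under each alternative other than the changed thresholds and the use of every row. The filters on mean level kept 256 of them (above the median gene) and 276 (a group averaging 6 or more). In every such fit that held the gene, 281 kept their call and none reversed. Spry2, Agrn, Jun, Cat, Cntfr, Sox17, Etv4 and Upk1b lost it in at least 1. Genes were named mainly for the size of their differences, which largely fixed this outcome. It says little about called genes nearer 1 log2 unit. Of 2014 list counts, 33 moved by over 1.5 times, among them the lower macrophage markers, of which 0 remained when dim genes were left out by the median level and 3 when a group had to average 6 or more. Values near the level of sensory receptor genes may be background, which limits the size of differences there.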
